A study of Mus musculus with 10 samples.

Results

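Histone genes encode the proteins around which DNA is wound in chromatin. The nucleosome core holds H2A, H2B, H3 and H4, and the linker histone H1 binds the DNA between cores. Most core and H1 histone is made from clustered, intronless, replication-dependent genes, whose mRNA usually ends in a stem-loop in place of a poly(A) tail and is made mainly while DNA is copied. Variant, or replacement, histones come from separate genes that are also expressed outside S phase.

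The histone loci were chosen by 2 criteria, a gene symbol that begins with Hist1 to Hist4, H2af, H3f3 or H1f, and the status OK in the authors' tables, which marks loci that the authors tested. This selected 76 loci among 12171 loci of status OK in either table, of which 64 were replication-dependent cluster loci and 12 were variant loci. There were 73 histone loci among 11290 in the basal table and 72 among 11464 in the suprabasal table, and 69 were in both. No histone locus with another status was present. Because the tables that chose the members are the same tables whose values are given here, the counts of lower and higher members are a description. The 76 loci name 69 distinct symbols, of 91 in the GENCODE M21 annotation that match the same pattern.

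The RNA came from skin of FVB/N mice at postnatal day 4, from keratinocytes sorted by flow cytometry into basal cells, which divide on the basement membrane, and suprabasal cells, which have left it and differentiate. The groups were wild type (WT, 3 samples) and bitransgenic HGPS mice (BT, 2 samples), with these numbers in each layer. HGPS is Hutchinson-Gilford progeria, caused by progerin, a truncated lamin A; the labels used here do not name the transgenes or the promoters that drive them. The authors' tables hold 1 pooled value per group, read here as FPKM (fragments scaled by transcript length and library size), so the level of each sample, its spread and its depth are unknown, and whether 1 library carries a value cannot be told. The samples may also share animals across layers, since 4 of 6 title stems occur in both.

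Basal keratinocyte markers were lower in WT suprabasal than in WT basal cells for 10 of 10 loci, and suprabasal markers were higher for 10 of 10. The basal markers were also lower in BT than in WT, for 9 of 10 loci in basal and 8 of 10 in suprabasal cells, where they summed to 8825 FPKM in WT and 4829 FPKM in BT. The keratin gene Krt15, called lower in both layers of the authors' deposited table, stood at 1602 FPKM in WT basal, 308 in BT basal, 1025 in WT suprabasal and 124 in BT suprabasal cells. The summed suprabasal markers of BT were 0.760 of WT in suprabasal and 1.24 of WT in basal cells. By locus, 7 were higher and 3 lower in BT suprabasal cells, and 6 were higher and 4 lower in BT basal cells. Among the lower ones in suprabasal cells were Krt10, at 6574 and 2354 FPKM, and Krt1, at 3419 and 1622 FPKM. In basal cells Lor was called lower, with q 0.0347, and Dsc1 higher, with q 0.00858, in the authors' deposited table. Beside the suprabasal comparison, melanocyte markers summed to 2006 FPKM in WT and 3732 FPKM in BT cells, higher for 6 of 6 loci, and the fibroblast markers in the table, 4 of 6, summed to 18.4 and 29.0 FPKM. In basal cells the 3 melanocyte loci in the table summed to 8.38 and 12.9 FPKM. Of the leukocyte list 1 locus of 7 was in the tables, of the endothelial list none of 4, and of the erythroid list 2 of 5 in the suprabasal table, with sums of 2.59 and 15.4 FPKM. The Xist locus, whose RNA is made from the inactive X chromosome of females, was at 0.258 in WT and 108 FPKM in BT basal cells, and at 0.236 and 103 FPKM in suprabasal cells. The part of these differences in the histone values was not tested, and in these pooled values sex and genotype cannot be told apart.

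In suprabasal cells the histone families differed in how far BT lay below WT. All 13 H2A loci and all 10 H3 loci on the annotated strand were at least 2-fold lower in BT, beside 5.89% of all loci tested. H4 loci were lower by less, and H2B and H1 loci by less still, some of them being higher in BT. In basal cells the family medians were lower in BT by similar amounts, from -0.50 to -0.33 on the log2 scale. Ratios are given as log2((BT + 1) / (WT + 1)) of FPKM, which understates the change of low genes.

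The families also differ in the base composition of their coding sequences, and the first 90 coding bases of 6 genes are shown because H2A, H3 and H4, the cluster families with the lowest suprabasal medians, are also those with the highest coding GC content. They are from GENCODE M21 transcripts on mm10, 5' to 3', with G and C in capitals.
Hist1h2ak coding start, chr13:21753738-21753827 (-): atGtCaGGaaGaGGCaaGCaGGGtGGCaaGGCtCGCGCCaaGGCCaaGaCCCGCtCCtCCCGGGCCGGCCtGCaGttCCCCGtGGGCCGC
Hist1h3g coding start, chr13:23535446-23535535 (+): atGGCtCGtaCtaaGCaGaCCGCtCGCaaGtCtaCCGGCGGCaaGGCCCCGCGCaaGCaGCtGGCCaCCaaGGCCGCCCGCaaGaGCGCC
Hist1h4h coding start, chr13:23531115-23531204 (+): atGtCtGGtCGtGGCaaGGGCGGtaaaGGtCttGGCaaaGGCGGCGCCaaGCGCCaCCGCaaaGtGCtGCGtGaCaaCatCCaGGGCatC
Hist1h2bl coding start, chr13:21716054-21716143 (-): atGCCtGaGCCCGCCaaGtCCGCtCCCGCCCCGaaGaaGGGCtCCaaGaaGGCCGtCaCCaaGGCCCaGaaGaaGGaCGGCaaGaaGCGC
Hist2h2bb coding start, chr3:96269752-96269841 (+): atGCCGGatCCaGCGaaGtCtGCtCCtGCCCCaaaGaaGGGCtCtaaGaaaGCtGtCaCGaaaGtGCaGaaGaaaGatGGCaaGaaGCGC
Hist1h1b coding start, chr13:21780465-21780554 (-): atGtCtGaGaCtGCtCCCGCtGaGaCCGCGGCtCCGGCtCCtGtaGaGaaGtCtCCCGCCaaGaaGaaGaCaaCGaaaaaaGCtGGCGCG
Over the whole coding sequence, G and C made up 68.7% of Hist1h2ak, 67.2% of Hist1h3g, 66.0% of Hist1h4h, 63.5% of Hist1h2bl, 55.6% of Hist2h2bb and 57.4% of Hist1h1b. In the 90 bases shown, the shares were 71.1%, 68.9%, 61.1%, 65.6%, 53.3% and 58.9% in the same order. The stretch of Hist1h4h thus holds less G and C than that of Hist1h2bl, unlike the whole coding sequences. The family medians were 69.5% for H2A, 67.4% for H3, 65.9% for H4, 62.8% for H2B, 57.4% for H1 and 56.4% for the variant genes, against 52.8% over 10068 loci with a coding sequence.

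The linker histone loci had a small suprabasal difference that rested on few loci. Hist1h1e, the most abundant of them, stood at 789 FPKM in WT basal, 554 in BT basal, 425 in WT suprabasal and 249 in BT suprabasal cells. The merged locus Hist1h1c,Hist1h1d stood at 365, 232, 188 and 91.9 FPKM in the same order. Hist1h1b read 136, 128, 47.1 and 39.0 FPKM, and Hist1h1a read 146, 122, 67.7 and 78.8 FPKM. Hist1h1a was the only H1 locus on the annotated strand that was higher in BT suprabasal cells. The median log2 ratio of the 4 H1 loci was -0.39 in basal and -0.52 in suprabasal cells, and none was called at the authors' q or had an unadjusted p under 0.05 in either layer. Without the H1 loci that share 1 span of chromosome 13, the medians were -0.17 and -0.02, so the order of H1 and H2B, at -0.19 without that span, turned. Over all loci the medians were -0.11 and -0.08.

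H2A, which pairs with H2B in the nucleosome, had the lowest suprabasal median of the families with a pseudocount of 1 FPKM, but with a pseudocount of 5 FPKM its median was -1.49 and that of H3 was -2.27. Hist1h2ak, the most abundant H2A locus, stood at 293 FPKM in WT basal, 235 in BT basal, 332 in WT suprabasal and 9.26 in BT suprabasal cells. It was the 1 H2A locus called: in the authors' deposited table it fell by 5.17 on the log2 scale in suprabasal cells, with q 0.0161. The WT suprabasal value was thus 35.9 times the BT value, whereas in basal cells the ratio was 1.25. Hist1h2al stood at 111, 74.0, 69.5 and 2.61 FPKM in the order WT basal, BT basal, WT suprabasal and BT suprabasal, and Hist1h2ab at 7.83, 7.31, 53.4 and 0.569 FPKM. Both were far lower in BT suprabasal cells, but the authors' deposited table gives them q of 0.263 and 0.843, and the standard error implied by the authors' p was 1.98 and 5.60 on the log2 scale. Thus the suprabasal levels of most H2A loci rest on imprecise estimates.

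The remaining H2A loci were lower in the same way. In WT suprabasal cells Hist1h2af, Hist1h2ai, Hist1h2an, Hist1h2ah, Hist1h2ag, Hist1h2ad, Hist1h2ae, Hist1h2ac, Hist2h2ac and the merged locus Hist3h2a,Trim17 lay between 8.22 and 35.2 FPKM, and in BT suprabasal cells between 0.108 and 16.2 FPKM. The highest of the latter was Hist3h2a,Trim17, at 35.2 and 16.2 FPKM. The median log2 ratio of the 13 H2A loci was -2.94 in suprabasal cells, with a range of -5.12 to -1.07. In basal cells the median of 12 loci was -0.34, with a range of -0.66 to 0.38, and none was 2-fold lower.

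H2B loci did not share the suprabasal difference of H2A. Hist2h2bb stood at 398 FPKM in WT basal, 316 in BT basal, 194 in WT suprabasal and 276 in BT suprabasal cells. The merged locus Hist1h2bc,Hist1h2bg read 333, 219, 241 and 139 FPKM, and Hist1h2bb read 181, 129, 109 and 66.8 FPKM. Hist1h2bm, with 41.9 and 61.1 FPKM in basal cells, was the H2B locus with the highest basal ratio, at 0.53. Of 14 H2B loci in suprabasal cells, 8 were lower and 6 higher in BT. Beside 5.89% of all loci, 2 were at least 2-fold lower, Hist1h2bn (18.7 and 6.18 FPKM) and Hist3h2ba (5.28 and 1.93 FPKM). Hist1h2bk stood at 36.0 FPKM in BT suprabasal cells, with a WT level 1.67 times as high. Hist1h2bj, Hist1h2bh, Hist1h2bf, Hist1h2be and Hist1h2bp lay between 3.55 and 33.6 FPKM in WT and between 3.66 and 45.1 FPKM in BT suprabasal cells. Of these, Hist1h2bh, Hist1h2bf and Hist1h2bp were higher in BT, and Hist1h2bj and Hist1h2be lower. The pseudogene locus Hist3h2bb-ps was listed at 0.00189 FPKM in WT and 7.65 FPKM in BT suprabasal cells, and the authors' deposited table gives it q 0.622. The median log2 ratio of H2B was -0.15 in suprabasal and -0.50 in basal cells, and no H2B locus on the annotated strand was called. An unadjusted p under 0.05 was listed for 1 in basal and 0 in suprabasal cells. Over all loci it was listed for 701 lower and 166 higher of 11290 in basal cells. In suprabasal cells it was listed for 592 lower and 223 higher of 11464.

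H3 loci resembled H2A. Hist1h3g stood at 104 FPKM in WT basal, 90.6 in BT basal, 50.4 in WT suprabasal and 2.82 in BT suprabasal cells. Hist1h3f read 26.3, 24.9, 49.9 and 1.77 FPKM, and Hist1h3h read 7.13, 5.29, 43.3 and 1.07 FPKM. Hist2h3b, the most abundant H3 locus, read 135, 78.3, 86.9 and 11.6 FPKM. Hist1h3a, Hist1h3b, Hist1h3c, Hist1h3d and Hist1h3e lay between 10.9 and 52.6 FPKM in WT and between 2.24 and 10.7 FPKM in BT suprabasal cells. The 10 H3 loci had a median log2 ratio of -2.72 in suprabasal cells, from -4.42 to -1.30, and of -0.33 in basal cells, where Hist1h3d was level at 31.6 FPKM and Hist1h3c, at 57.4 and 28.2 FPKM, was furthest below WT. None was called at the authors' q in either layer. An unadjusted p under 0.05 was listed for 4 in suprabasal and 0 in basal cells. Over all loci it was listed for 592 lower and 223 higher of 11464 in suprabasal cells. In basal cells it was listed for 701 lower and 166 higher of 11290. The lowest q of the family in the authors' deposited table was 0.0854, for Hist1h3i, whose BT suprabasal level of 11.7 FPKM was 18.0% of WT.

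H4 lay between these families, and held a called locus in each layer. Hist1h4h stood at 86.1 FPKM in WT basal, 57.3 in BT basal, 112 in WT suprabasal and 21.2 in BT suprabasal cells, and fell in suprabasal cells with q 0.0161 in the authors' deposited table. Hist1h4a stood at 394, 205, 310.1 and 30.6 FPKM. It fell in basal cells with q 0.0371 in the authors' deposited table; its suprabasal level was 9.86% of WT, with q 0.167. The basal call was lost with Benjamini-Hochberg adjustment over all loci, at 0.155. Hist1h4d, the histone locus with the highest level in both basal groups, read 1436, 1188, 525 and 278 FPKM, and the merged locus Hist1h4c,Hist1h4f read 510.0, 388, 255 and 224 FPKM. Both of these abundant loci kept at least 52.9% of the WT suprabasal level. Hist1h4b, Hist1h4i, Hist1h4j, Hist1h4k, Hist1h4n, Hist2h4 and Hist4h4 lay between 11.6 and 103 FPKM in WT and between 3.45 and 31.8 FPKM in BT suprabasal cells. All 11 H4 loci were lower in BT in both layers, with medians of -0.92 in suprabasal and -0.44 in basal cells. At least 2-fold lower were 5 of them in suprabasal cells, beside 5.89% of all loci, and 1 in basal cells, beside 7.79%.

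**Figure D1:**
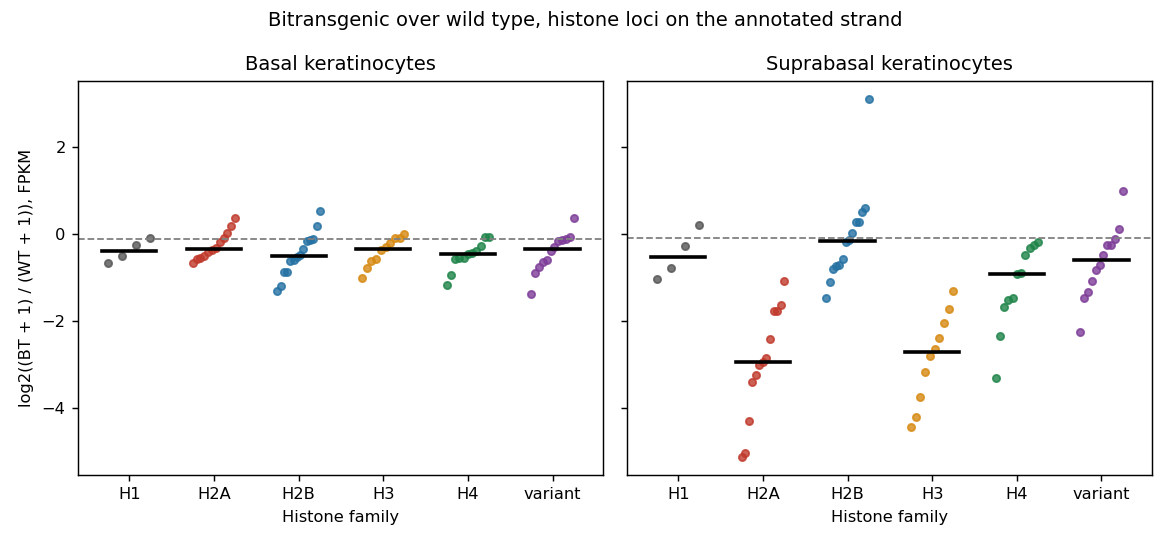
Log2((BT + 1) / (WT + 1)) of FPKM for each histone locus on the annotated strand, by family, in basal and suprabasal cells. Each point is 1 locus, the black bar is the family median and the dashed line is the median of all loci tested, -0.11 in basal and -0.08 in suprabasal cells. In suprabasal cells every H2A and H3 point lies below -1, while H2B points lie on both sides of 0.

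**Figure D2:**
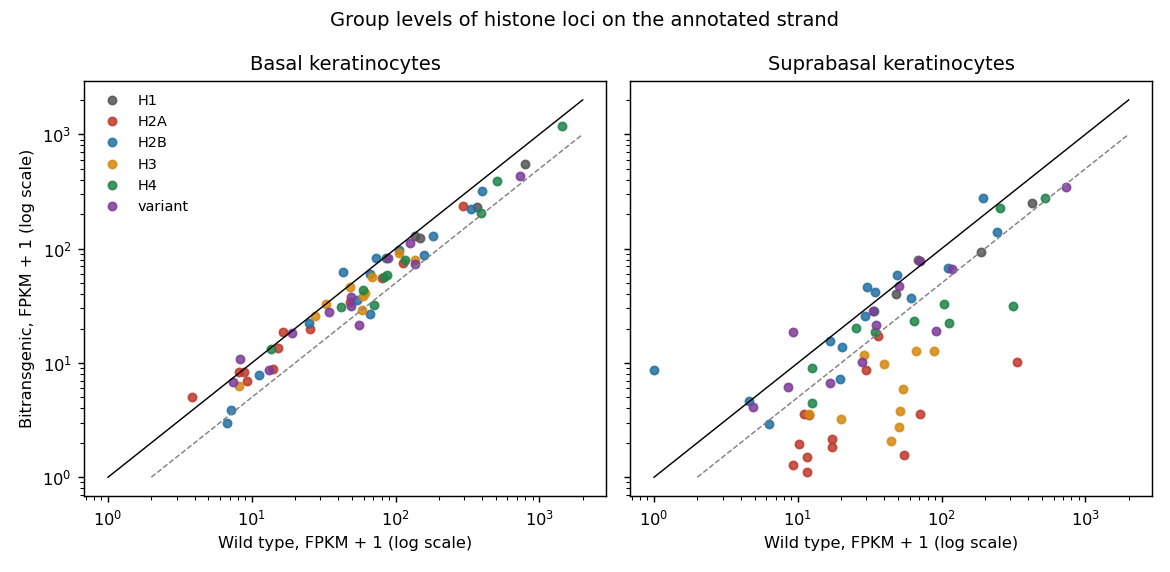
BT against WT group level (FPKM + 1, log axes) of each histone locus on the annotated strand, coloured by family. The solid line marks equal levels and the dashed line a 2-fold lower BT level; in suprabasal cells all H2A and H3 loci lie below the dashed line.

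Counted over both classes and strands, 38 of 72 histone loci were at least 2-fold lower in BT suprabasal cells, beside 5.89% of all loci tested there. In basal cells 10 of 73 were, beside 7.79% of all. At the authors' q, 3 histone loci were lower in each layer and none higher, beside 1.39% of all basal loci and 0.419% of all suprabasal loci called lower. The basal calls were Hist1h4a, H1f0 and the locus counted on the strand opposite to Hist1h2bn, and the suprabasal calls were Hist1h2ak, Hist1h4h and H2afj. Since the same tables chose the members, nothing is read from these shares about the histone genes as a list.

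The difference between layers was tested per locus by a Wald z-test, two-sided, of whether the log2 fold changes of suprabasal and basal cells were unequal, using standard errors implied by the authors' p. After Benjamini-Hochberg adjustment over 10579 loci, 4 loci passed, which is 0.0378%, and none of 69 histone loci did. The smallest adjusted p of a histone locus was 0.214 in this Wald test, for Hist1h2ak, whose difference was -4.85 ± 1.30 on the log2 scale, and for the locus opposite to Hist1h2bn, at 1.99 ± 0.54. The SE of Hist1h2ak is an upper bound, since its suprabasal p is the smallest in the table. At an unadjusted p under 0.05 there were 13 histone loci, 11 of them with the larger difference in suprabasal cells, beside 3.08% of all loci. The test treats the layers as independent, which the recurring title stems leave in doubt. The family pattern in suprabasal cells is therefore a description of pooled levels, and the layers were not shown to differ for any single histone locus.

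Summed over the annotated-strand cluster loci in both tables, without pseudogenes, the makeup of the core histone RNA in BT suprabasal cells differed from the other 3 groups. The 6 opposite-strand loci in both tables, left out here, summed to 497 FPKM in WT basal and 271 in BT basal cells. In suprabasal cells they summed to 497 FPKM in WT and 602 in BT. How the shares below would change with them was not tested. H2A summed to 623 FPKM in WT basal, 478 in BT basal, 601 in WT suprabasal and 44.7 in BT suprabasal cells. H3 summed to 594, 436, 445 and 58.2 FPKM in the same order. H2B summed to 1512, 1139, 806 and 725 FPKM, and H4 to 2890.4, 2169, 1481 and 684 FPKM. H2A thus made up 11.1% of the summed core histone level in WT basal, 11.3% in BT basal, 18.0% in WT suprabasal and 2.96% in BT suprabasal cells. H2B made up 26.9%, 27.0%, 24.2% and 48.0%. Between the basal groups the share of each core family differed by less than 1 percentage point. In bulk RNA, fewer expressing cells and less RNA per cell cannot be told apart.

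From basal to suprabasal cells, the family medians were lower in WT, least so for H2A. The tables were normalized separately, so these ratios are a description with no test. The median log2 suprabasal over basal ratio in WT cells was -1.03 for H1, -0.31 for H2A, -1.05 for H2B and -0.67 for H3. In BT cells it was -1.24, -2.54, -0.70 and -2.68. The summed H4 level of suprabasal cells was 0.512 of the basal sum in WT and 0.315 in BT cells. The H2A and H3 medians were thus lower in BT than in WT cells, while that of H2B was less negative. A list of S phase genes, among them the replication clamp Pcna and the Mcm helicase subunits, had medians of -0.85 in WT and -0.63 in BT cells, and all loci had -0.03 and -0.02.

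Several H2A and H2B genes start back to back and share the DNA between their starts. The 6 such pairs with 185 to 302 bases between annotated starts were compared within each pair, so that H2A and H2B lie beside the same intergenic DNA. In suprabasal cells the H2A gene was lower relative to its H2B partner in 6 of 6 pairs, with a median difference of log2 ratios of -3.41 and a range of -3.66 to -1.21. In basal cells this held in 2 of the 5 pairs with both genes in the table, with a median of 0.15 and a range of -0.29 to 0.99. The pairs reuse the family values given above, so they are no second pattern beside the families. Hist1h2ai, Hist1h2ad, Hist1h2an and Hist1h2ah were under 1 FPKM in BT suprabasal cells, with implied SE of 4.79, 3.97, 3.67 and 2.82. For Hist1h2ag and Hist1h2ak, at 2.48 and 9.26 FPKM, it was 1.17 and 1.27, and for Hist1h2bn 3.02. In the pair Hist1h2ai and Hist1h2bl, Hist1h2ai read 14.2, 12.5, 10.6 and 0.108 FPKM in WT basal, BT basal, WT suprabasal and BT suprabasal cells. Hist1h2bl read 157, 86.1, 47.6 and 57.7 FPKM. In the pair Hist1h2ak and Hist1h2bn, the H2A gene kept 2.78% of its WT suprabasal level, and the H2B gene kept 33.1%.

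**Figure D3:**
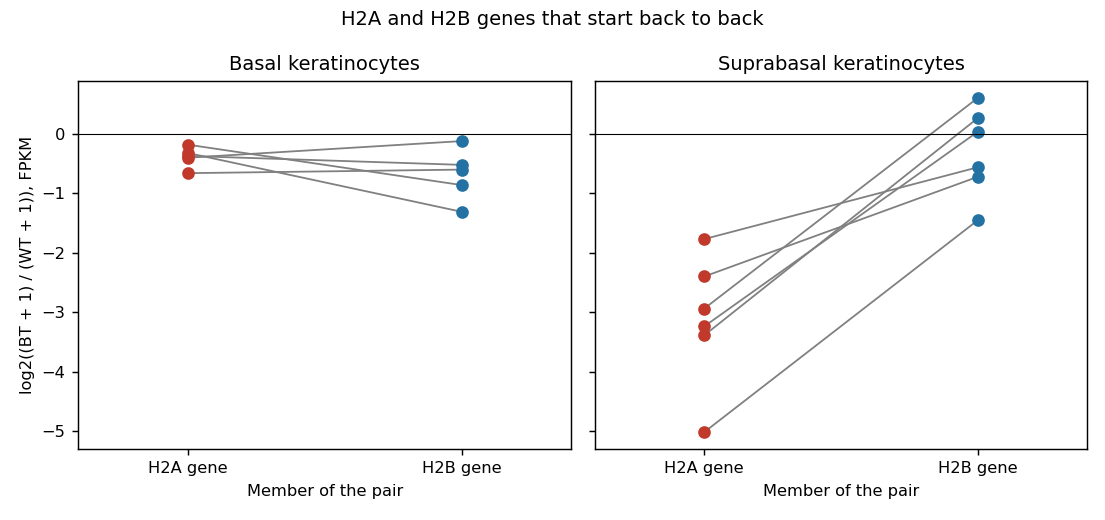
Log2((BT + 1) / (WT + 1)) of FPKM for the H2A and H2B gene of each pair that starts back to back, joined by a line, in basal (5 pairs) and suprabasal (6 pairs) cells. In suprabasal cells every line rises from H2A to H2B; in basal cells the lines run either way.

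The bases before the start are shown for Hist1h2ai, whose stretch is shared with Hist1h2bl, and, for contrast, for the called Hist1h4h, for Hist1h1b and for Hist2h2bb. They are RefSeq sequences on GRCm38.p6, and capitals mark 4 motifs on either strand. They are the CCAAT box, spelled CCAAT; the TATA box, spelled TATAAA; the octamer known from H2B promoters, spelled ATTTGCAT; and the H1 box known from H1 promoters, spelled AAACACA.
Hist1h2ai upstream, chr13:21716212-21716411 (+): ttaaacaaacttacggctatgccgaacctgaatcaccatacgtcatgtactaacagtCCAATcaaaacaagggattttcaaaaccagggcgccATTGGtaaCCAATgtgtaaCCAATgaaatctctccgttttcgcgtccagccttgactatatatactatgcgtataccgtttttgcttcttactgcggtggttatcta
Hist1h4h upstream, chr13:23530844-23531043 (+): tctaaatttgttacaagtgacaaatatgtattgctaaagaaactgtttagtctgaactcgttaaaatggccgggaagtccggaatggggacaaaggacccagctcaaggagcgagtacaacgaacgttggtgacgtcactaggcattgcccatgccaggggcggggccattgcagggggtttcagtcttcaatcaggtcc
Hist1h1b upstream, chr13:21780626-21780825 (-): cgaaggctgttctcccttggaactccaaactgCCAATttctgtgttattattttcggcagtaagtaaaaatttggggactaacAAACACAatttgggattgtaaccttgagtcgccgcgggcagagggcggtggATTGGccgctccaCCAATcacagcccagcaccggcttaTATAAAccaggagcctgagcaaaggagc
Hist2h2bb upstream, chr3:96269500-96269699 (+): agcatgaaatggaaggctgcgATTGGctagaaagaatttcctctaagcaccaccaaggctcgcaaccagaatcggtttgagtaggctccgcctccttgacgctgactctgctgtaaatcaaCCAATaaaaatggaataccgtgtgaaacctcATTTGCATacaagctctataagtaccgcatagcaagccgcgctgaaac
Of 69 histone symbols on the annotated strand, 61 had a RefSeq promoter, and the 250 bases before the start were searched for each motif on both strands. CCAAT was present in 13 of 13 H2A, 13 of 13 H2B, 8 of 9 H3, 5 of 5 H1, 3 of 11 H4 and 5 of 10 variant genes, against 37.5% of 27025 promoters. The octamer was present in 6 of 13 H2A and 6 of 13 H2B genes and in no H1, H3 or H4 gene, against 1.81% of promoters. AAACACA was present in 4 of 5 H1 genes, against 7.20%, and the TATA box in 25 of the 51 cluster genes, against 14.3%. H2A and H2B windows overlap where the genes start back to back, so motif counts of these families are not independent. The equal counts of H2A and H2B are thus partly counts of the same DNA, and no likeness of their promoters is read from them.

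The suprabasal ratio of histone loci was lower at higher coding GC content, but GC bins of these loci largely repeat the families. Coding GC content ran from 67.2% to 70.3% in H2A and from 67.2% to 69.9% in H3. It ran from 62.8% to 66.7% in H4 and from 55.6% to 63.5% in H2B. Family and GC content were not separated, so the bins are no second pattern beside the families. Among histone loci on the annotated strand with over 67% G and C, 23 of 24 were at least 2-fold lower in BT suprabasal cells, with a median log2 ratio of -2.72. Between 65% and 67%, 5 of 7 were, with a median of -1.51, and between 60% and 65%, 2 of 14 were, with a median of -0.63. In basal cells the medians of the same bins were -0.32, -0.55 and -0.38. Loci that are no histone also had lower ratios at high GC content, in suprabasal cells by less than histone loci. Over 67% the suprabasal median of 102 loci was -0.61, and 34.3% were at least 2-fold lower. In basal cells the median of 96 loci was -0.54, with 21.9%. That basal median was below the -0.32 of the 23 histone loci over 67%, of which 0 were at least 2-fold lower. Among the 102 suprabasal loci over 67% that are no histone, the 4 intronless loci under 1000 bases had a median of -1.14. Of these 4, 2 were at least 2-fold lower. Between 60% and 65% the suprabasal median of 4 such loci was -0.70, beside -0.63 for histone loci. Between 50% and 55% the medians of all loci that are no histone were -0.03 in suprabasal and -0.10 in basal cells. Outside the histone genes, GC-rich loci were thus lower in BT in both layers. The part of base composition in the histone values was not tested.

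**Figure D4:**
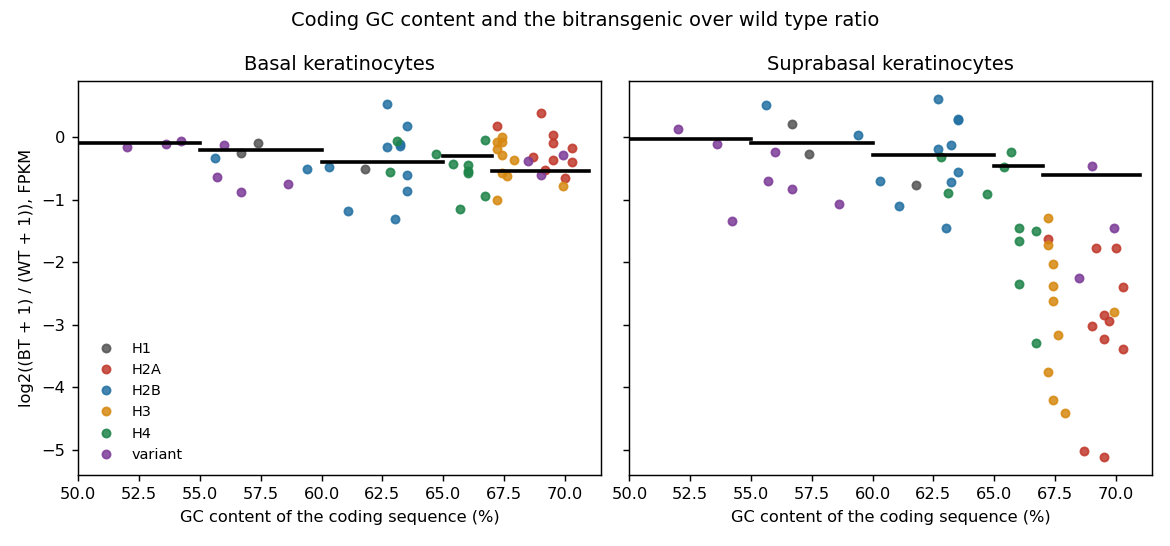
Log2((BT + 1) / (WT + 1)) of FPKM against the GC content of the coding sequence for histone loci on the annotated strand, coloured by family, in basal and suprabasal cells. Black bars are the medians of loci that are no histone, by GC bin. In suprabasal cells 23 of 24 histone loci over 67% lie below -1, the exception being H1fx, where the bar is at -0.61; in basal cells their median is -0.32 and the bar is at -0.54.

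The sequence of histone genes is also shared among family members, which limits how reads could be assigned. In ungapped comparisons of coding sequences of equal length, the median identity within a family was 98.2% for H2A, 96.6% for H2B, 97.5% for H3 and 93.9% for H4. Words of 50 bases were also compared with the transcripts of all other genes, histone or not, on either strand. The median share that a locus had in common with them was 67.3% for H2A, 57.2% for H3, 45.3% for H2B, 34.7% for H4 and 0% for H1. How the authors' tools split reads between copies is not given in the sources used here, so the value of a single H2A or H3 locus is less certain than the family sum. In addition, 13 loci, among them Hist1h1e, Hist1h4d and Hist1h2ad, share 1 span in the deposited tables, chr13:23551258-23740366 on mm10.

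In total 65 loci lay on the strand of the annotated gene and 11 on the opposite strand, read from the order of locus numbers in the tables, which gave the annotated strand for 97.8% of 11185 loci with 1 symbol. The opposite-strand loci carry a histone symbol but are not counted with the families. The most abundant was opposite to Hist1h2bn, at 401 FPKM in WT basal, 182 in BT basal, 272 in WT suprabasal and 490.5 in BT suprabasal cells. It lies on the strand of the neighbouring Hist1h2ak. It fell in basal cells with q 0.0470 in the authors' deposited table, and was higher in BT suprabasal cells with q 0.341. The basal call did not hold after Benjamini-Hochberg adjustment over all loci, at 0.212. Opposite to Hist1h1e, the suprabasal levels were 42.4 and 142 FPKM, and opposite to Hist1h2bb, the BT level of 43.9 FPKM was 2.09 times WT. Opposite to Hist3h2bb-ps, the basal levels were 115 and 6.54 FPKM, with q 0.615 in the authors' deposited table. Opposite to Hist1h3c the basal levels were 31.6 and 40.5 FPKM and the suprabasal levels 40.1 and 15.6 FPKM, the latter with q 0.474 in the authors' deposited table, and opposite to Hist3h2ba 3.72 and 0.544 FPKM. Opposite to Hist1h3b the locus was listed at 0.000974 and 3.77 FPKM in basal cells. The loci opposite to Hist1h4n, Hist1h4a, Hist1h3a and Hist2h2ac lay between 1.24 and 71.3 FPKM in every group in which they were listed. The merged locus Hist2h2aa1,Hist2h3c1, which joins an H2A and an H3 gene and is counted in neither, read 3.17 and 0.385 FPKM in basal cells.

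Among the variant genes, H2afj, H2afx and H2afz were furthest below WT in suprabasal cells. H2afj, a close relative of canonical H2A, stood at 48.0 FPKM in WT basal, 36.5 in BT basal, 90.2 in WT suprabasal and 18.1 in BT suprabasal cells. It fell by 2.32 on the log2 scale in suprabasal cells, with q 0.0161 in the authors' deposited table, and its coding sequence holds 68.5% G and C. H2afx, whose product is phosphorylated at DNA breaks, read 33.2, 26.9, 26.8 and 9.11 FPKM, with q 0.0550 in the suprabasal rows of the authors' deposited table and 69.9% G and C. H2afz, which encodes H2A.Z, read 18.1, 17.3, 15.8 and 5.66 FPKM with 54.2% G and C. Its suprabasal q in the authors' deposited table was 0.141. Of the sequence words compared above, H2afz shared 69.6% with transcripts of other genes, beside a median of 11.9% for the variant loci. The part of base composition in the H2afz values was not tested. H1fx, with 69.0% G and C, read 12.2, 7.70, 7.60 and 5.21 FPKM and was not 2-fold lower.

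H3f3a and H3f3b both encode the replacement histone H3.3. H3f3b, the most abundant variant, stood at 733 FPKM in WT basal, 434 in BT basal, 733 in WT suprabasal and 347 in BT suprabasal cells, with q 0.151 and 0.141 in the authors' deposited table. H3f3a read 125, 112, 70.0 and 76.3 FPKM. H3f3c read 7.30, 9.74, 8.31 and 17.5 FPKM, and H3f3a-ps2, a pseudogene, read 54.6, 20.5, 32.5 and 27.2 FPKM. H1f0, the replacement linker histone of cells that stop dividing, stood at 135, 72.7, 118 and 66.0 FPKM. It fell in basal cells with q 0.0371 in the authors' deposited table, and its suprabasal level was 55.9% of WT, with q 0.232. Benjamini-Hochberg adjustment over all loci gave 0.116 for the basal difference, which ended the call. The macroH2A genes H2afy, at 88.1, 81.2, 49.8 and 45.8 FPKM, and H2afy2, at 6.41, 5.76, 3.88 and 3.13 FPKM, were close between genotypes. H2afv, the other H2A.Z gene, read 48.2, 30.6, 34.1 and 20.6 FPKM. The 12 variant loci had median log2 ratios of -0.34 in basal and -0.58 in suprabasal cells, and 1 and 4 of them were at least 2-fold lower. Over all loci tested the shares were 7.79% in basal and 5.89% in suprabasal cells, so the basal count lay near that of all loci.

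**Figure D5:**
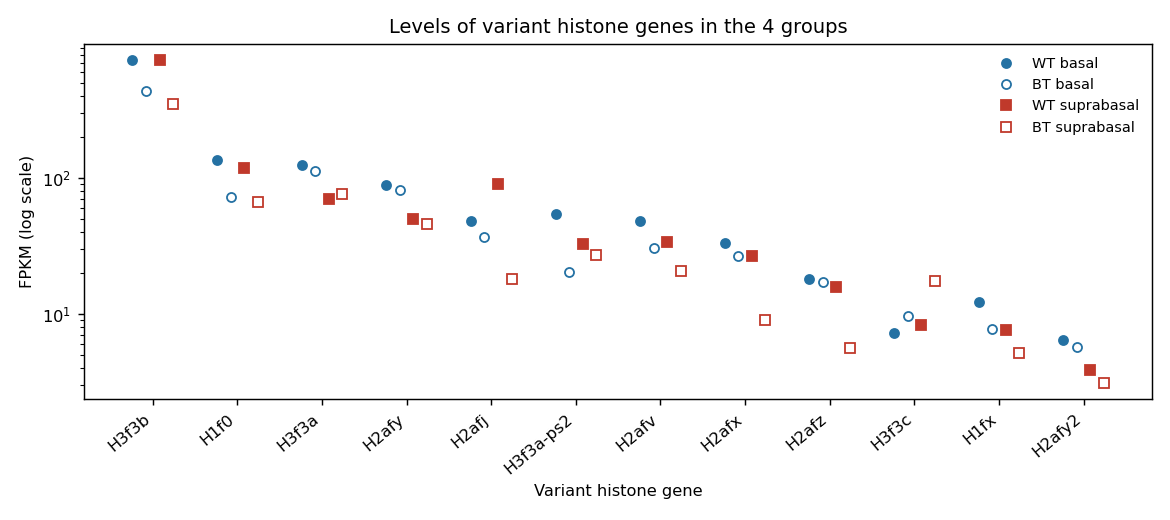
FPKM (log axis) of the 12 variant histone loci in the 4 groups, ordered by mean level. Filled symbols are WT and open symbols BT, circles basal and squares suprabasal; the gap between filled and open squares is widest for H2afj, H2afx and H2afz.

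Genes that act on histones were read as lists. The 4 lists were histone mRNA processing, chaperones, remodelers that exchange variants, and S phase genes. None held a locus called at the authors' q in either layer. An unadjusted p under 0.05 was listed for 3 loci of these lists in basal and 3 in suprabasal cells. Over all loci it was listed for 701 lower and 166 higher of 11290 in basal cells. In suprabasal cells it was listed for 592 lower and 223 higher of 11464. Slbp, whose product binds the stem-loop of replication-dependent histone mRNA, stood at 45.6 FPKM in WT basal, 41.5 in BT basal, 33.9 in WT suprabasal and 12.4 in BT suprabasal cells. Its suprabasal log2 fold change was -1.44 ± 0.52 (SE implied by the authors' p), with q 0.141 in the authors' deposited table, and it was the processing locus furthest below WT there. Casp8ap2, which encodes a histone locus body protein, read 12.6, 21.9, 21.6 and 11.9 FPKM and was furthest above WT of the processing list in basal cells. Zfp473, a factor of histone pre-mRNA cleavage, was furthest below in basal cells, at 2.42 and 0.601 FPKM, and Fip1l1, a polyadenylation factor, furthest above in suprabasal cells, at 28.5 and 35.4 FPKM. The processing list had median log2 ratios of -0.08 in basal and -0.10 in suprabasal cells over 19 and 18 loci, with 10 and 11 loci lower and 9 and 7 higher.

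Of the 27 chaperone loci, 18 were higher and 9 lower in BT basal cells, and 20 were higher and 7 lower in BT suprabasal cells, with medians of 0.16 in both layers. Asf1a, an H3-H4 chaperone, was furthest below WT in suprabasal cells, at 7.42 and 3.16 FPKM, and Anp32b, a histone chaperone of the Anp32 family, was furthest above, at 66.8 and 112 FPKM. Hjurp, the chaperone of the centromeric H3 variant, was furthest below WT in basal cells, at 36.1 and 18.8 FPKM, and Npm1, nucleophosmin, furthest above, at 98.5 and 155 FPKM. The remodeler list had medians of 0.04 in basal and -0.08 in suprabasal cells. Its loci furthest below WT were the merged locus Ep400,Pus1 in basal cells, at 208 and 61.6 FPKM, and Yeats4 in suprabasal cells, at 18.0 and 8.16 FPKM. Those furthest above were Ruvbl1 in basal cells, at 2.68 and 4.84 FPKM, and, in suprabasal cells, a locus on the strand opposite to Srcap, at 5.31 and 7.09 FPKM, which the list counts include. The S phase list had medians of 0.06 and 0.10, with 14 of 32 loci lower and 18 higher in BT in each layer. In basal cells Pold1, a DNA polymerase subunit, was furthest below WT, at 28.9 and 11.5 FPKM, and Rfc3, a clamp loader subunit, furthest above, at 21.3 and 35.1 FPKM. In suprabasal cells Ccna2, cyclin A2, was furthest below, at 25.1 and 13.9 FPKM, and Ccne2, cyclin E2, furthest above, at 4.65 and 15.9 FPKM. Pcna read 85.1, 97.2, 57.4 and 51.0 FPKM in WT basal, BT basal, WT suprabasal and BT suprabasal cells. The suprabasal median of the S phase list thus lay near 0, beside -2.94 for H2A and -2.72 for H3.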

How the data were processed

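RNA was sequenced from 10 sorted keratinocyte samples. Per the labels' protocols, 10 ng of RNA per sample was made into strand-specific libraries with a NuGen Ovation kit; per the submitters' processing notes, TopHat, Cufflinks and mm10 were used, without versions. The authors deposited 1 table per layer, with 1 pooled level per group read as FPKM from the table form and the tools, log2 fold changes, a test statistic (a score, not used), p-values and q-values. Depth per sample is not known.

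Ratios are log2((BT + 1) / (WT + 1)), with a pseudocount of 1 FPKM. A locus is called where the authors' deposited q-value is under 0.05. Standard errors were implied from the authors' p-value, and the layers were compared with a Wald z-test and Benjamini-Hochberg adjustment. That test was run on simulated data with independent layers, no lower limit on p and smaller standard errors than many histone loci had in suprabasal cells. The simulation therefore does not cover the conditions of those loci. Deposited starts count from 0, so 1 was added. GC content and shared words came from GENCODE M21, promoters from RefSeq. Python 3.11, pandas 2.3.3, numpy 2.4.6 and scipy 1.17.1 were used. The members and lists were chosen with earlier results of these data known. Named were called loci, per class and layer the 4 loci furthest from 0 in each direction, the 4 most abundant per class and all variants, plus others chosen after their values were seen. Alternatives changed the adjustment, centring, pseudocount, low-value filter and members. Those on strand, pseudogenes, the shared span and shared words were chosen after seeing the data.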

Additional observations from a re-analysis of the deposited data

How the results depend on the processing

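Of 98 alternatives to the main results, 77 kept direction and side of the threshold or moved by under 0.1 on the log2 scale. The calls were the least stable. With Benjamini-Hochberg adjustment over all loci, and again with centred fold changes, the cluster calls in basal cells went from 2 to 0 and the variant call from 1 to 0; with annotated-strand loci only, the cluster calls went from 2 to 1. The suprabasal calls, 2 cluster loci and 1 variant, did not change under any alternative run. The suprabasal cluster median, -1.31, was -1.41 with a pseudocount of 0, -0.99 with a pseudocount of 5, and -1.45 with 1-symbol loci, annotated-strand loci or without the shared span of chromosome 13. Centring moved the basal medians to -0.33 for the cluster loci, from -0.43, and to -0.24 for the variants, from -0.34. The suprabasal variant median, -0.58, was -0.46 with a pseudocount of 5 and -0.70 with at least 5 FPKM or without pseudogenes. From basal to suprabasal cells, the cluster median was -0.71 on the annotated strand in place of -0.57 in WT, and in BT, from -1.40, it was -1.52 with a pseudocount of 0, -1.15 with 5 and -1.56 on the annotated strand. The BT variant median, -0.55, was -0.44 with a pseudocount of 5. In the layer test, 13 histone loci passed at an unadjusted p under 0.05, against 0 after adjustment. By family, the suprabasal H2A median ranged from -4.30 to -1.49, H3 from -3.00 to -2.17 and H4 from -1.46 to -0.91. H2B ranged from -0.19 to -0.04 and H1 from -0.52 to -0.02, the last without the shared span. H3 was lower than H2A with a pseudocount of 5. The basal H2A median reached 0.21 with loci that share under 50% of words. These were only Hist1h2ae (2.84 and 4.00 FPKM) and Hist1h2ac (7.16 and 7.37 FPKM), with implied SE of 1.78 and 1.45. The cause of these shifts was not tested.

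No paired analysis was possible because each group is given as 1 pooled value, and for the same reason no replicate was left out. The tables hold no depth, so the precision of low FPKM values, which H2A loci have in BT suprabasal cells, is known only through the authors' p.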
